A study of Mus musculus with 3 samples.

Results

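The genes described here are 10 regulators of the G1 phase of the cell cycle: the D cyclins Ccnd1, Ccnd2 and Ccnd3, the E cyclins Ccne1 and Ccne2, the kinases Cdk4 and Cdk6, and the inhibitors Cdkn1a, Cdkn1b and Cdkn2c. They were chosen by name, and all 10 were found by symbol among the 27734 genes listed in all 3 runs, with the same identifier in each. Counts came from 10x single-cell libraries of thymocytes of C57BL/6 mice, labelled as week 6 of age, and each run was 1 library made from 4 pooled thymi after depletion of CD4+ and CD8+ cells. Run 1 was a sort of all double-negative (DN) cells together with TCRγδ+ cells. Run 2 was a sort of the CD44+ stages DN1 and DN2, with TCRγδ+ cells gated out, and run 3 mixed 3 separate sorts, of DN1 with DN2, of DN3 and of TCRγδ+ cells. No mouse was treated or mutant, and each sort was made once, so that runs differ in sort as well as in library.

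In G1, D cyclins bind Cdk4 or Cdk6 and phosphorylate Rb, which releases E2F factors, and E2F then drives the E cyclins that bind Cdk2 at the entry into S phase. Cdkn2c (p18) binds Cdk4 and Cdk6, whereas Cdkn1a (p21, a target of p53) and Cdkn1b (p27) bind cyclin and Cdk2 complexes. In the thymus, Kit signals drive division of the early thymocytes, the cycle pauses while Tcrb is rearranged in DN3 cells, and cells that pass β-selection divide again.

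Cells were assigned to stages by marker UMIs, none of which came from the 10 genes. A UMI is a tag that counts 1 captured RNA molecule. ETP-like cells carried Kit with Flt3, Cd34 or Hhex, and no Il2ra, Ptcra, Rag1 or Rag2. DN2a-like cells carried Il2ra with Kit or Cpa3, DN2b-like cells carried Rag1, Rag2 or Ptcra in addition, and DN3-like cells carried Il2ra and Ptcra without Kit and Cpa3. DN4-like cells carried Ptcra with Cd8a or Cd8b1, without Kit and Cpa3. The γδ-like cells had at least 3 Trdc UMIs with a Cd3 gene and at least 1 further marker, among them Sox13 and Id3. They had no Il2ra or Ptcra. A last gate held Kit-negative cells with Cd44 and Il7r, no Il2ra, Ptcra, Rag1 or Rag2, and fewer than 3 Trdc UMIs. The gates were applied in a fixed order, starting with the γδ-like gate, and a cell took the first rule it met. These gates held 12623 of the 21879 cells kept, 57.7%. Counts were summed per gate and run, and levels are given as CPM, the usual depth-normalized unit in which the UMIs of every sum are brought to the same total, with sums under 20 cells left out. ETP-like cells (60 and 58) and Kit-negative cells (534 and 615) could therefore be read in runs 2 and 3 only, and DN4-like cells (831 and 46) in runs 1 and 3 only.

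Some libraries and gates stood apart. In run 1, the γδ-like gate carried Cd8b1 at 117 CPM, against 3.77 and 7.15 CPM in runs 2 and 3, and Sox13 at 46.4 CPM, against 152 and 279 CPM. A stricter γδ-like gate, with 3 Trdc UMIs after thinning each cell to 2000 UMIs and with no Cd8a or Cd8b1 UMI, was therefore added, and its values for the 10 genes are given with the main γδ results. The lists of other genes were not read with it. It held 180, 466 and 517 of the 572, 625 and 938 cells. The Kit-negative gate carried the 8 markers of natural killer cells and mature lymphocytes at a sum of 2820 to 3995 CPM, against 474 to 852 CPM in the ETP-, DN2-, DN3- and DN4-like gates, and none of these 8 was at 0 there, so it is named by its rule and not as DN1. Markers of B cells, myeloid or dendritic cells, erythroid cells and stromal cells summed to at most 170 CPM in any gate, except for erythroid genes in the ETP-like gate of run 2 (437 CPM). Cells with UMIs of at least 2 B cell markers or at least 2 myeloid or dendritic markers had been left out before the gates were applied. The B cell and myeloid sums were therefore kept low by rule. Runs 1 and 2 shared 72 cell barcodes, runs 1 and 3 shared 1, and runs 2 and 3 shared 0. How many would be shared by chance was not worked out.

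Run 3 differed from the others for particular genes. In the DN2a-, DN2b-, DN3- and γδ-like gates, Cdkn1b was 3.89 to 4.63 times as high in run 3 as in run 2, and Cdkn2c was 0.184 to 0.266 times as high. Cdk4 stood at 0.484 to 0.588 times its run 2 level, while Ccnd2 was at 1.02 to 1.22 times. The limits on genes detected and mitochondrial UMIs kept 7511 of 8869 cells in run 3, against 5516 of 5527 and 8852 of 8887 in runs 1 and 2. The kit, the counting software, the sort and the cells lost to these limits can differ between the runs and cannot be told apart. Levels were therefore compared between gates within a run, and each test had the run as a block.

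**Figure D1:**
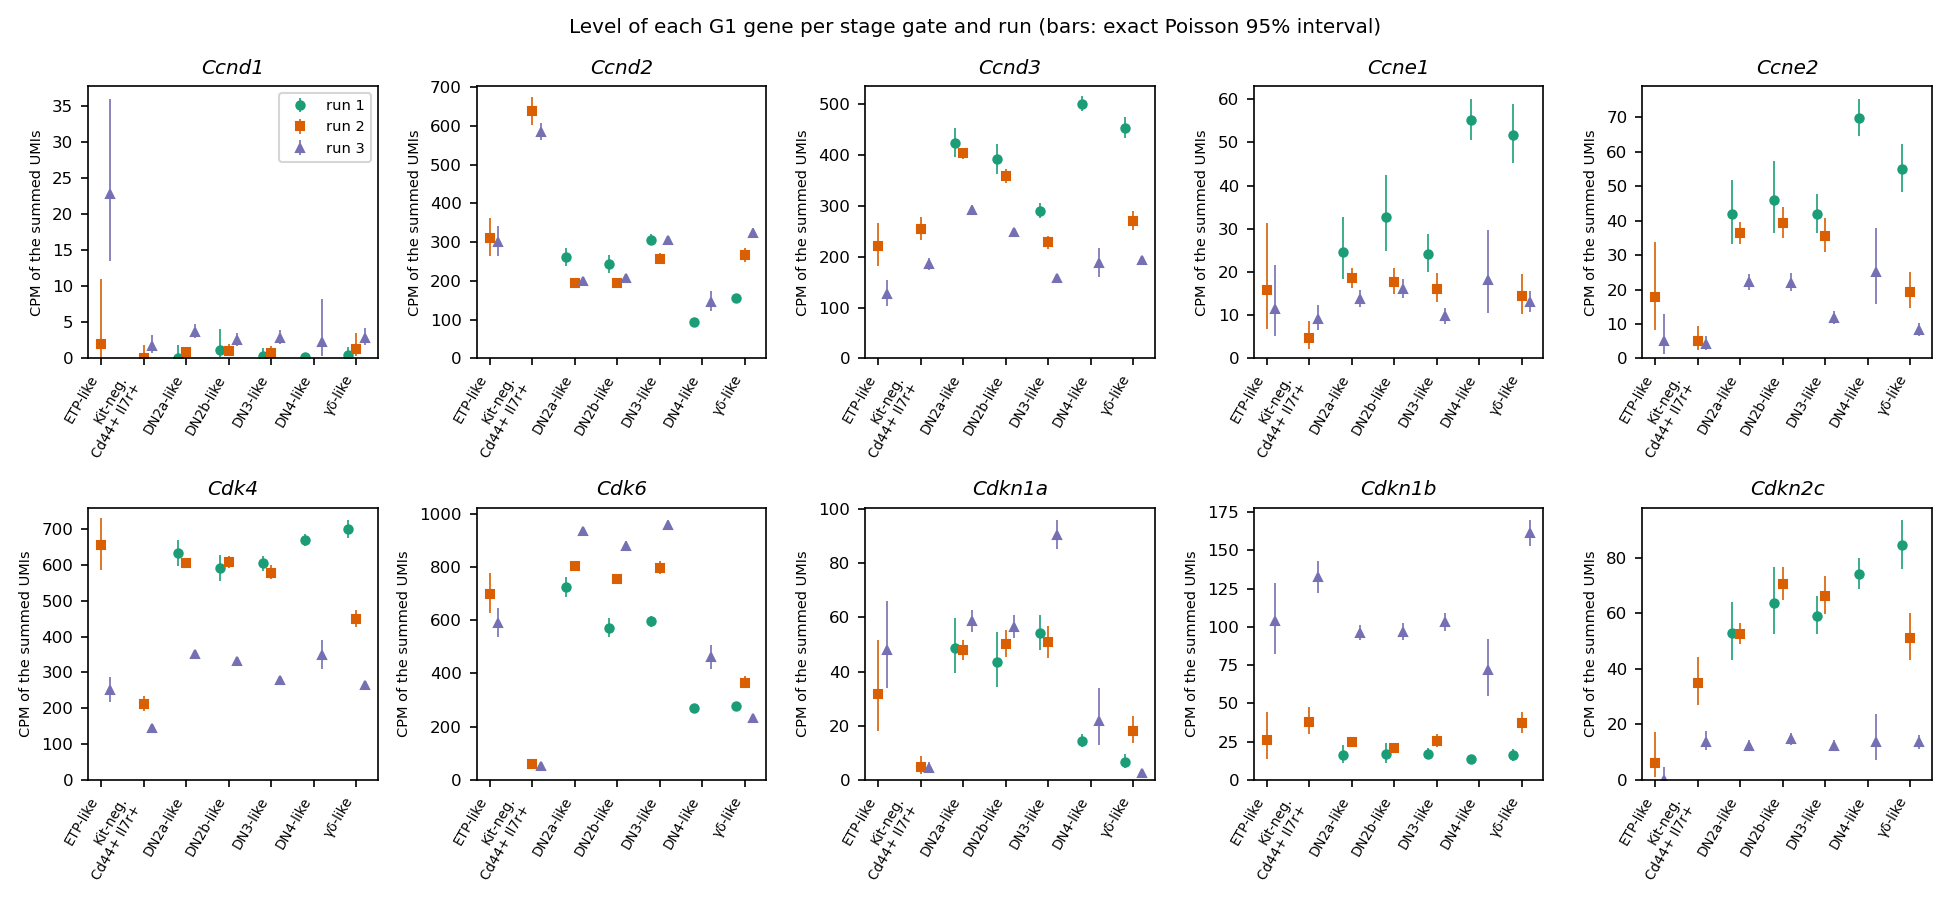
Level of each of the 10 genes (CPM of the summed UMIs, linear axes starting at 0) in each stage gate, with 1 point per run and exact Poisson 95% intervals for counting error. Ccnd2 and Cdk6 move in opposite directions in the Kit-negative gate (585 to 637 and 51.9 to 58.0 CPM), and the run 3 points lie apart for Cdkn1b and Cdkn2c.

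The D cyclins changed places along the stages. Ccnd2, the D cyclin known as a target of cytokine signals in lymphocytes, was highest in the Kit-negative gate, at 637 and 585 CPM in runs 2 and 3. It was at 309.8 and 300.3 CPM in ETP-like cells. In DN2a-like cells it was at 261, 196 and 199 CPM in runs 1, 2 and 3, and in DN2b-like cells at 243, 194 and 209 CPM. Within each run, DN3-like cells had more Ccnd2 than both DN2 gates, at 306, 258 and 305 CPM. The lowest levels were in DN4-like cells, at 93.8 and 146 CPM in runs 1 and 3, below every other gate of the same run.

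Ccnd3, the D cyclin required for the expansion of thymocytes after β-selection, followed another order. It was highest in DN2a-like cells in runs 2 and 3, at 403 and 293 CPM, and at 423 CPM in run 1. DN2b-like cells had 391, 358 and 248 CPM and DN3-like cells 289.7, 228 and 158 CPM, so the order of these 3 gates was the same in every run, although neither step passed the test described below. DN4-like cells were at 500.2 CPM in run 1 and 187 CPM in run 3. ETP-like cells had 220.4 and 127 CPM, the least Ccnd3 of any stage gate in both runs.

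Ccnd1, the D cyclin of many epithelial and myeloid cells, was close to absent from thymocytes. It was at most 3.71 CPM in all DN2-, DN3-, DN4-, γδ-like and Kit-negative sums. In run 3, ETP-like cells had 18 UMIs in 14 of 58 cells, or 22.8 CPM (exact Poisson 95% interval 13.5 to 36.0), with at most 3 UMIs in 1 cell. In run 2, 1 of 60 ETP-like cells had 1 UMI, below the 3 counts taken as the floor, which was 5.96 CPM in that sum.

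As a share of all D cyclin UMIs, the 3 genes could be set side by side, since this kit counts 1 tag per molecule and the values were not scaled by length. How well each gene is captured was not measured. Ccnd3 took 61.9%, 67.2% and 59.1% of D cyclin UMIs in DN2a-like cells in runs 1, 2 and 3. In DN3-like cells the share was 48.6%, 46.9% and 34.0%, and in every run the exact Clopper-Pearson 95% interval of the DN3-like share lay below that of the DN2a-like share. In DN4-like cells Ccnd3 took 84.2% in run 1 and 55.8% in run 3. Ccnd2 took the larger share in ETP-like cells, 58.2% and 66.8%, and in Kit-negative cells, 71.5% and 75.8%.

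**Figure D2:**
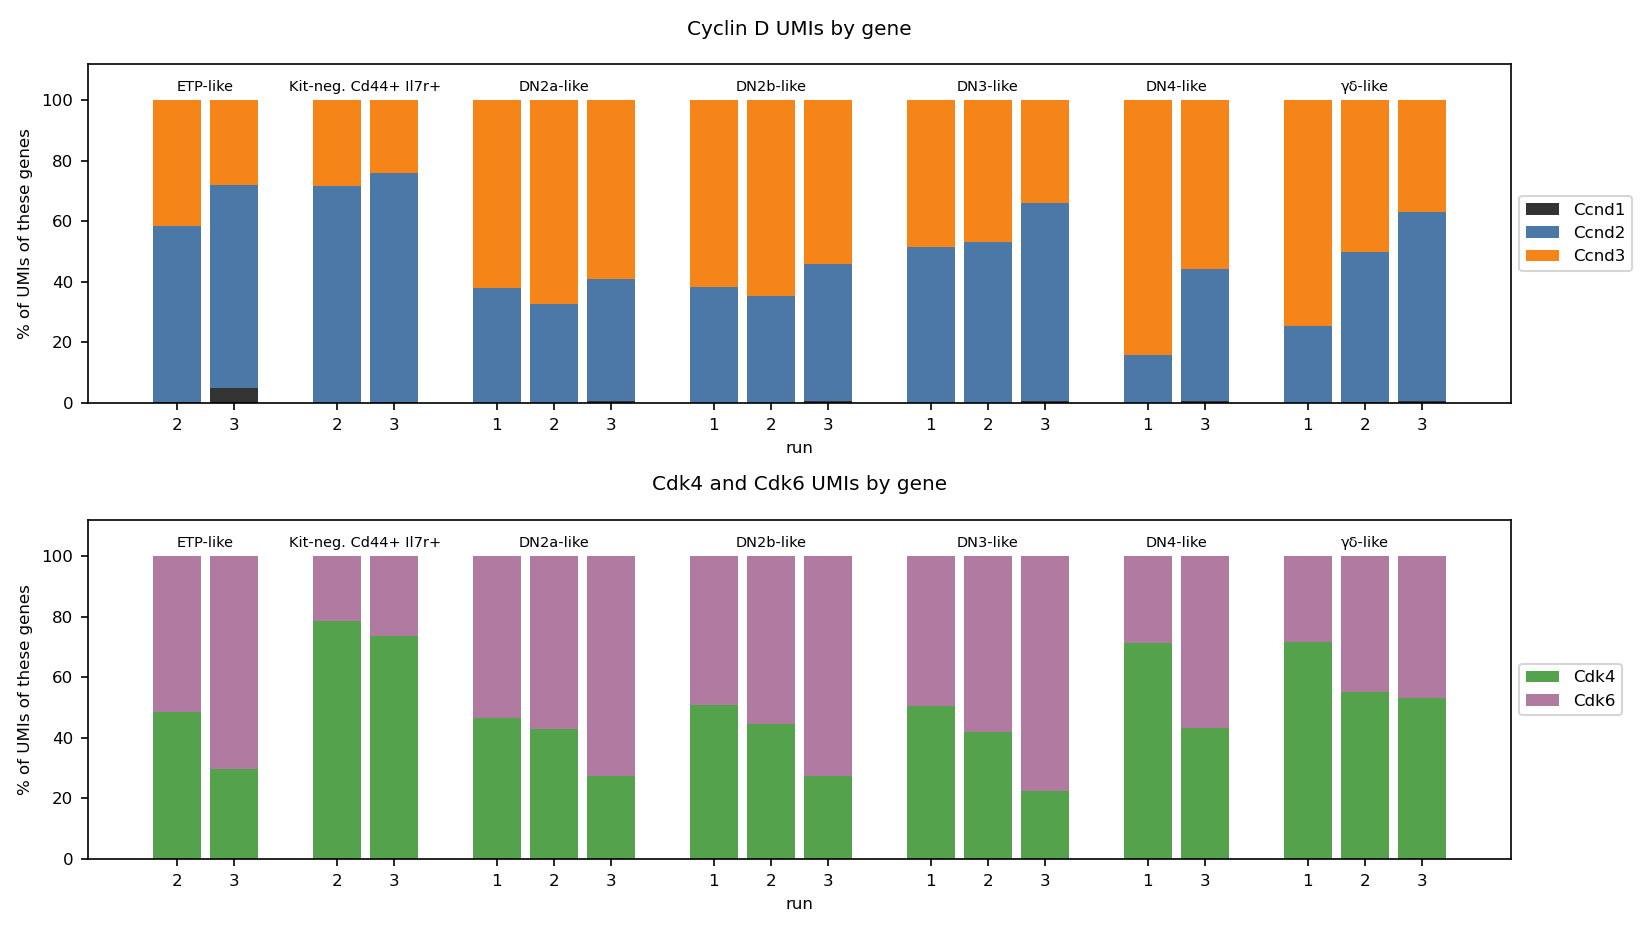
Share of the D cyclin UMIs (upper panel) and of the Cdk4 and Cdk6 UMIs (lower panel) held by each gene, in percent, with 1 bar per gate and run. The Ccnd3 share is larger in DN2a-like than in DN3-like cells in all 3 runs, and Cdk6 takes 21.4% and 26.3% in Kit-negative cells.

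The step from ETP-like to DN2a-like cells addresses which G1 genes change as early thymocytes enter the T lineage. Of the 10 genes, 2 rose and 1 fell by edgeR's quasi-likelihood test with Benjamini-Hochberg adjustment over all genes tested, while 5.79% of the 11597 genes tested passed, 2.33% higher and 3.47% lower. Ccnd3 rose by 0.93 on the log2 scale (SE 0.22, adjusted p = 0.013), from 220.4 to 403 CPM in run 2 and from 127 to 293 CPM in run 3. Ccnd1 fell by 2.54 (SE 0.51, adjusted p = 0.0050), a call that rests on run 3, since run 2 had 1 and 12 UMIs in the ETP- and DN2a-like sums and the gene did not pass the filter on low counts without run 3. Ccnd3 was not called without run 2 (0.96, adjusted p = 0.22) or without run 3 (0.73, adjusted p = 0.44). Cdkn2c rose (adjusted p = 0.0032), and is described with the inhibitors. In cells with at most 5 UMIs of the cycle panels described below, the Ccnd3 difference was 0.93 (adjusted p = 0.00069). In cells with at least 12 it was 0.67. ETP-like cells then had 1 sum, of 20 cells in run 2, so that class cannot show whether the rise holds among cycling cells. Of the other CDK and G1 genes, Btg2, an antiproliferative gene, fell by 1.32 (SE 0.28, adjusted p = 0.0074), the only call among the 38 genes of 5 lists of other G1 genes, which are given after the cell cycle classes.

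The step from DN2a-like to DN2b-like cells is meant to span commitment to the T lineage. Its 2 gates differ only by at least 1 UMI of Rag1, Rag2 or Ptcra, counted without thinning. DN2b-like cells were deeper, with medians of 5844, 8488.5 and 13400.5 UMIs against 4584, 7264 and 13216.5 in runs 1, 2 and 3. Whether committed cells fell into the DN2a-like gate was not tested. None of the 10 genes passed edgeR's test, with 0.198% of all genes called. At an unadjusted p under 0.05 the count was also 0, and DESeq2 called 0. The 95% intervals of the 10 log2 differences all lay between -1.06 and 0.74, and those of Ccnd2, Ccnd3, Cdk4 and Cdk6 all lay within -0.54 and 0.35. From DN2b-like to DN3-like cells, again none of the 10 passed edgeR's test or DESeq2 at the adjusted threshold, against 1.87% of all genes. Ccnd2 and Ccnd3 were the 2 genes with an unadjusted p under 0.05, with log2 differences of 0.45 (SE 0.18, adjusted p = 0.34) and -0.57 (SE 0.17, adjusted p = 0.11). Their direction was the same in all 3 runs. Without run 1, both passed, Ccnd2 at 0.49 (adjusted p = 0.016) and Ccnd3 at -0.64 (adjusted p = 0.00061), and with the stricter γδ-like gate, which changes the spread shared by all gates, both passed too (adjusted p = 0.015 and 0.011).

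From DN3-like to DN4-like cells, 5 of the 10 genes passed edgeR's test, 2 higher and 3 lower, against 5.59% of all genes, 1.72% higher and 3.87% lower. This step is meant to cross β-selection. The DN4-like rule does not exclude Il2ra, however, so the gates may not part cells cleanly at that point. Ccnd2 fell by 1.22 (SE 0.22, adjusted p = 0.0034) and Ccnd3 rose by 0.70 (SE 0.19, adjusted p = 0.042). Cdk6 fell by 0.94 (SE 0.18, adjusted p = 0.0055) and Cdkn1a by 1.74 (SE 0.42, adjusted p = 0.023), and Ccne1 rose by 1.15 (SE 0.30, adjusted p = 0.034). The Ccne1 call held in 7 of 16 other settings, and was lost with the highest doublet scores left out (1.27, adjusted p = 0.060), with gate markers at 2 UMIs (1.26, adjusted p = 0.089) and with only the gates a run was sorted for (1.31, adjusted p = 0.052). The same direction was seen in run 1, with 831 DN4-like cells, and in run 3, with 46. Run 3 was not sorted for DN4 cells, and which of its sorts these 46 came from is not given. Their median depth was 20629 UMIs, against 7808.5 in DN3-like cells of that run. DN4-like cells were also the most cycling gate among the cells kept. In runs 1 and 3, 91.8% and 56.5% of them had 12 or more panel UMIs, against 38.6% and 15.9% of DN3-like cells. Among cells with at least 12 panel UMIs, Ccnd2 (-0.90, adjusted p = 0.016) and Cdk6 (-0.73, adjusted p = 0.017) were still called, while Ccnd3 (0.44, adjusted p = 0.28), Ccne1 (0.49, adjusted p = 0.19) and Cdkn1a (-1.17, adjusted p = 0.12) were not. With at most 5, DN4-like cells had 1 sum, of 30 cells in run 1, so that class cannot show whether the differences hold outside the cycle. There Ccnd2 was at 290 CPM against 513 CPM in DN3-like cells, Cdk6 at 486 against 920, Ccnd3 at 298 against 184, Cdkn1a at 62.6 against 102 and Ccne1 at 0 against 2.37. Without run 1, Ccnd2 and Cdk6 passed, and without run 2, which holds no DN4-like sum, Ccnd2 and Cdkn1a passed and Cdk6 did not (-0.97, adjusted p = 0.056). Without run 3, Cdk6 alone passed, at -1.07 (adjusted p = 0.046), with DN4-like cells then being 1 sum that is assumed to vary like the other gates. Of the listed genes, Btg1, another antiproliferative gene, fell by 1.10 (SE 0.29, adjusted p = 0.033).

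**Figure D3:**
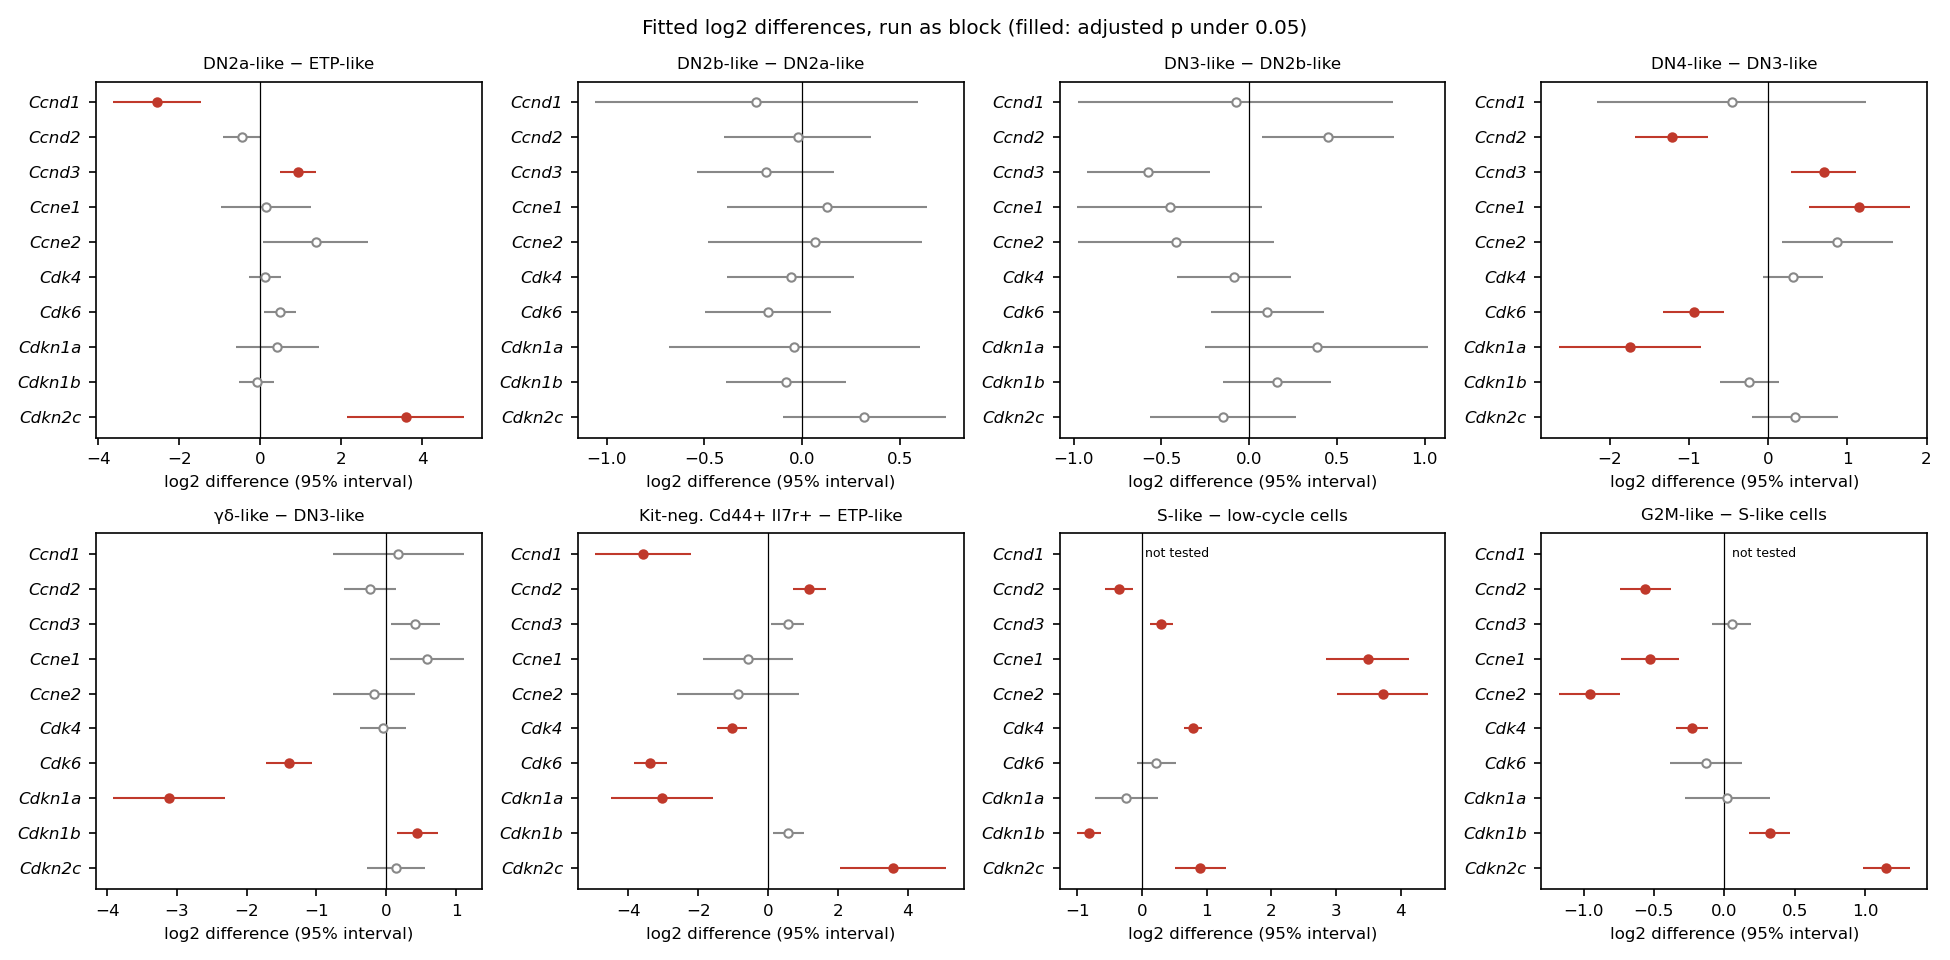
Fitted log2 differences of the 10 genes in the 6 comparisons of stage gates and the 2 of cell cycle classes, with 95% intervals and the run as a block; filled points passed the adjusted threshold. The horizontal scales differ between panels, and Cdk6 lies below 0 in the DN4-like, γδ-like and Kit-negative panels.

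The promoters of the 2 kinases are shown because edgeR's calls for them differed in some comparisons. Cdk4 rose from low-cycle to S-like cells, where Cdk6 was not called (0.22, adjusted p = 0.23). That value spans gates that went opposite ways. With the later classes described below, Cdk6 was higher in S-like than in low cells in 3 of 13 sums, all of them γδ-like. Cdk6 was lower in γδ-like than in DN3-like cells, where Cdk4 was not called with the main gate (-0.04, adjusted p = 0.89). Over the 18 sums of gate and run the 2 kinases had r = 0.85, as given with the likeness of pattern. From DN3-like to DN4-like cells they parted. In runs 1 and 3 the Cdk4 ratios were 1.11 and 1.24, and the Cdk6 ratios 0.452 and 0.480. Cdk4 lies at chr10:127063534-127067920 on the plus strand and Cdk6 at chr5:3341485-3531008 on the plus strand (GRCm38, GENCODE vM21). Cdkn1a (chr17:29090976-29100727, plus) and Ccnd3 (chr17:47505051-47599691, plus) share a chromosome, as do Cdkn1b (chr6:134920401-134925513, plus) and Ccnd2 (chr6:127125162-127152193, minus), Ccne1 (chr7:38097984-38107534, minus) and Ccnd1 (chr7:144929931-144939925, minus), and Ccne2 (chr4:11191351-11204779, plus) and Cdkn2c (chr4:109660876-109667189, minus). RefSeq promoter windows on GRCm38.p6, with 250 bases before and 50 after the start, were at hand for 7 of the 10 genes. The letters CACGTG, the E-box core that MYC and MAX are known to bind and which reads the same on both strands, are shown in capitals, 5′ to 3′. The windows are chr10:127063285-127063584 for Cdk4 and chr5:3343643-3343942 for Cdk6. The RefSeq start used for Cdk6 lies downstream of the GENCODE gene start given above, so this window is inside the gene as GENCODE draws it.
Cdk4: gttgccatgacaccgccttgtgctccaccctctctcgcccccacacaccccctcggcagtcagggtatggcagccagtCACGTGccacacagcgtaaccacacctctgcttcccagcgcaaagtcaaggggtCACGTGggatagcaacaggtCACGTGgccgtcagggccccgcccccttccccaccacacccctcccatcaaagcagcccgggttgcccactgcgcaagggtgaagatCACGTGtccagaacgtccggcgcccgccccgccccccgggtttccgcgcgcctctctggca
Cdk6: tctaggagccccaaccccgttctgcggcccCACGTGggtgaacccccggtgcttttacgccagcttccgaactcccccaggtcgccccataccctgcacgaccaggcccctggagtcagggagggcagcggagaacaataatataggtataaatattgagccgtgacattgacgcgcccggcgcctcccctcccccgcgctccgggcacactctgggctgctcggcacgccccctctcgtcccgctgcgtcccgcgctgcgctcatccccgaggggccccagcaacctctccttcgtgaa
The Cdk4 window holds 4 copies, starting at bases 79, 133, 153 and 240 of the window, and the Cdk6 window holds 1, at base 31. Of 32851 promoter windows of this length, 7.15% hold at least 1 copy and 8 windows hold 4 or more. The motif was picked after the windows had been searched, and the match describes letters only.

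Cdk4 was at 655 and 251 CPM in ETP-like cells of runs 2 and 3. It was at 632, 604 and 351 CPM in DN2a-like cells of runs 1, 2 and 3, at 589.8, 608 and 333 CPM in DN2b-like cells, and at 604, 578 and 280.1 CPM in DN3-like cells. DN4-like cells were at 669 and 349 CPM in runs 1 and 3. No comparison between neighbouring gates from ETP- to DN4-like called Cdk4, although in run 3 the ratio of DN2a-like to ETP-like cells was 1.40 (counting interval 1.21 to 1.62), beside 0.922 in run 2, and that of DN3-like to DN2b-like cells was 0.842 (0.805 to 0.881). The Kit-negative gate was lowest, at 213 and 145 CPM.

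Cdk6 divided the gates far more. It was at 725, 804 and 935 CPM in DN2a-like cells, at 571, 753 and 879.9 CPM in DN2b-like cells and at 595, 797 and 959 CPM in DN3-like cells. ETP-like cells were at 699 and 589 CPM. Below these lay DN4-like cells (269 and 460.3 CPM), γδ-like cells (277, 366 and 233 CPM) and the Kit-negative gate (58.0 and 51.9 CPM), with no overlap between the DN2- and DN3-like sums and these 3 gates. In the thinned cells, 6.37% and 8.29% of Kit-negative cells had a Cdk6 UMI, against 70.8% and 79.5% of DN2a-like cells in runs 2 and 3. Without thinning these shares were 10.5%, 23.3%, 94.7% and 98.2%. The median depths were 3177 and 6616 UMIs in Kit-negative cells and 7264 and 13216.5 UMIs in DN2a-like cells.

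Cdk6 therefore took 49.6% to 77.4% of the Cdk4 and Cdk6 UMIs in DN3-like cells, and 28.3%, 44.8% and 46.8% in γδ-like cells of runs 1, 2 and 3. With the stricter gate the γδ-like shares were 33.2%, 42.4% and 45.9%. In the Kit-negative gate the share was 21.4% (18.0 to 25.2%) and 26.3% (23.5 to 29.3%).

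The γδ-like gate was set against the DN3-like gate. Run 2 was sorted for DN1 and DN2 cells with TCRγδ+ cells gated out. Both of its gates here are RNA rules that name stages outside its sort. Whether these cells were sorted DN1 and DN2 cells that met the rules was not tested. Of the 10 genes, 1 was higher and 2 were lower in γδ-like cells by edgeR's test, while 22% of all genes were called, 12.9% higher and 9.05% lower. Cdk6 was lower by 1.39 on the log2 scale (SE 0.16, adjusted p = 5.0e-06), a difference of 2.04 in run 3 and of 1.11 and 1.12 in runs 1 and 2. Cdkn1a fell by 3.11 (SE 0.38, adjusted p = 1.1e-05), from 54.2 to 6.76 CPM in run 1, from 50.8 to 18.2 CPM in run 2 and from 90.4 to 2.50 CPM in run 3. Cdkn1b was higher by 0.45 (SE 0.14, adjusted p = 0.030), from 25.8 to 37.0 CPM in run 2 and from 103 to 161 CPM in run 3, with 16.7 and 16.2 CPM in run 1. Ccnd3 (0.42, adjusted p = 0.087) and Ccne1 (0.59, adjusted p = 0.11) were not called. In runs 1, 2 and 3, Ccnd3 was at 453, 270 and 193 CPM, above the DN3-like cells of each run. With the stricter gate it was at 320, 219 and 193 CPM, which in run 2 lay below the 228 CPM of DN3-like cells.

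Both large differences held in the 17 other settings tried, where Cdk6 ranged from -2.76 to -0.64 and Cdkn1a from -4.95 to -1.80. Cdkn1b passed in 10 of the 17. It did not pass without run 2 (0.42, adjusted p = 0.28), without run 3 (0.27, adjusted p = 0.64), with only the gates a run was sorted for (0.42, adjusted p = 0.17), or without the run as a block. Nor did it pass among low-cycle cells (0.46, adjusted p = 0.14), among S-like and G2M-like cells (0.38, adjusted p = 0.059) or among cells with at least 12 panel UMIs (0.42, adjusted p = 0.065). With the stricter gate, γδ-like cells had Cdk6 at 270.4, 281 and 205 CPM and Cdkn1a at 12.3, 11.4 and 1.46 CPM, and the log2 differences were -1.70 and -3.67. Cdkn1b was at 25.8, 49.6 and 184 CPM with it, and its difference was 0.82 (adjusted p = 3.2e-06). The stricter gate also called Ccne2 (-1.24, adjusted p = 0.00027) and Cdk4 (-0.38, adjusted p = 0.010), and Ccne2 was called without run 1 too (-0.73, adjusted p = 0.016). Ccnd2 in run 1 moved from 155 to 343 CPM with it, next to 306 CPM in DN3-like cells.

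The share of cycling cells moved with this comparison as well. In runs 2 and 3, 18.1% and 14.4% of γδ-like cells had at least 12 panel UMIs, against 44.8% and 15.9% of DN3-like cells, and in run 1 68.7% against 38.6%. Among cells with at most 5 panel UMIs the differences were larger, -2.43 for Cdk6 (adjusted p = 1.0e-21) and -4.95 for Cdkn1a (adjusted p = 4.9e-18). Among cells with at least 12 they were smaller, -0.64 for Cdk6 (adjusted p = 0.0026) and -1.80 for Cdkn1a (adjusted p = 0.0013). The difference between these classes was not tested.

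**Figure D4:**
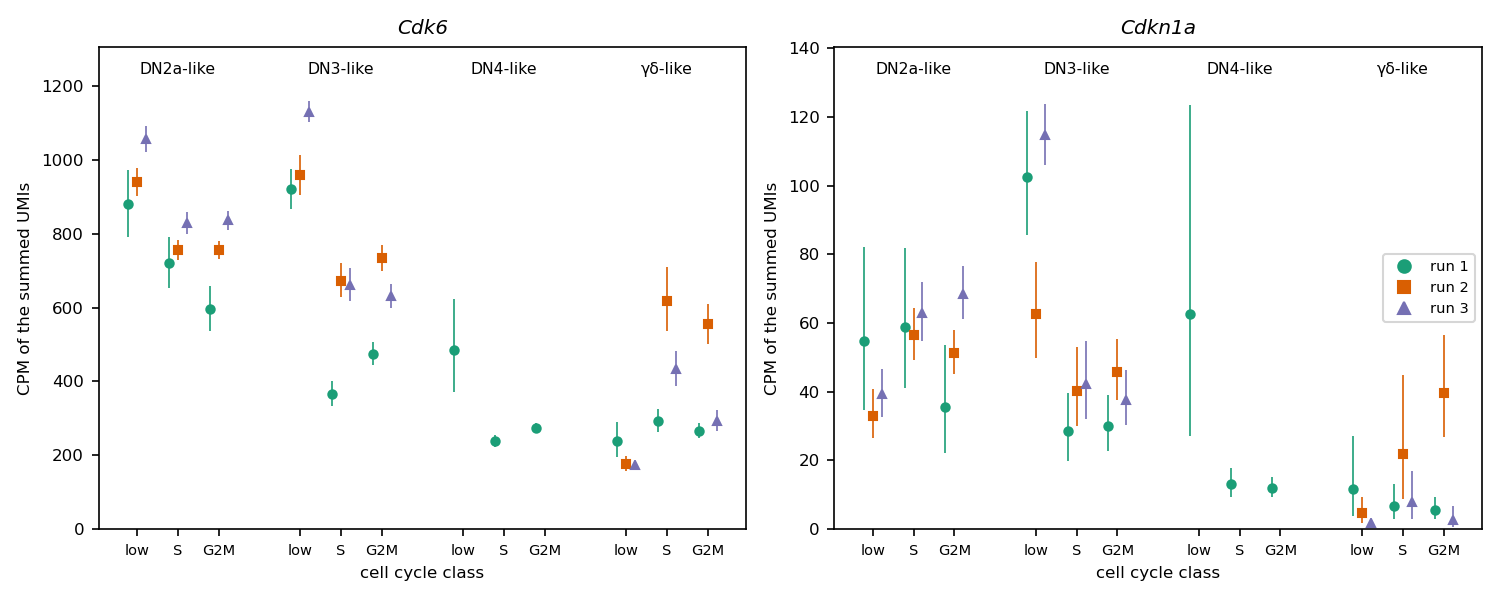
Levels of Cdk6 and Cdkn1a (CPM of the summed UMIs) by cell cycle class in 4 gates, with 1 point per run and exact Poisson 95% intervals; DN4-like cells have points for run 1 only. In the low class, γδ-like cells have 174.7 to 239.8 CPM of Cdk6 and DN3-like cells 920.0 to 1131 CPM.

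The Kit-negative gate was set against ETP-like cells. In run 3, which mixed 3 sorts, the sort that a cell of either gate came from is not given. Of the 10 genes, 6 passed edgeR's test, 2 higher and 4 lower, against 23.7% of all genes, 12.4% higher and 11.3% lower. Cdk6 was lower by 3.37 (SE 0.22, adjusted p = 1.0e-08) and was called in all 16 other settings. Ccnd2 was higher by 1.19 (SE 0.23, adjusted p = 0.0010), and Cdk4 was lower by 1.03 (SE 0.20, adjusted p = 0.0013). Cdkn1a was lower by 3.04 (SE 0.69, adjusted p = 0.0036), at 4.62 and 4.38 CPM against 31.8 and 48.1 CPM. Ccnd1 was lower as well (adjusted p = 0.00059), with 1.67 against 22.8 CPM in run 3, and with 0 UMIs against 1 in run 2, where no ratio can be given. Fewer Kit-negative cells were cycling, with 2.62% and 4.88% at 12 or more panel UMIs, against 33.3% and 12.1% of ETP-like cells. Among cells with at most 5 panel UMIs, Cdk6 (-3.47), Cdk4 (-1.06), Cdkn1a (-2.21) and Ccnd2 (higher, adjusted p = 2.3e-11) were still called. Among cells with at least 12, ETP-like cells had a sum in run 2 only (20 cells) and Kit-negative cells in run 3 only (30 cells). These gates then share no run, so the fitted differences are not comparisons within a run, and their spread comes from the other gates. They were -2.39 for Cdk6, 4.79 for Cdkn2c, -0.51 for Ccnd2, -0.53 for Cdk4, -4.42 for Cdkn1a and -2.88 for Ccnd1. Without run 3, Ccnd2 (1.24, adjusted p = 0.087), Cdkn1a (-2.58, adjusted p = 0.087) and Cdkn2c (2.74, adjusted p = 0.074) were not called and Ccnd1 did not pass the filter, and without run 2 neither Ccnd2 (1.10, adjusted p = 0.11) nor Cdk4 (-0.65, adjusted p = 0.18) was.

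The E cyclins, which activate Cdk2, were low everywhere. Ccne1 ranged from 4.62 CPM in Kit-negative cells of run 2 to 55.1 CPM in DN4-like cells of run 1. Ccne2 ranged from 4.17 CPM in Kit-negative cells of run 3 to 69.8 CPM in DN4-like cells of run 1. Ccne2 took 54.6% to 69.0% of E cyclin UMIs in the DN2a-, DN2b-, DN3- and DN4-like sums, so that it was the more frequent tag in each of these sums. It took 38.8% to 57.1% in γδ-like cells, and 34.7% to 57.1% with the stricter gate. The ETP-like shares rest on 17 and 13 UMIs.

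The inhibitors were used unevenly. Cdkn1a was highest in DN3-like cells of run 3, at 90.4 CPM. In DN2a- and DN2b-like cells it was between 43.7 and 58.6 CPM in all runs. DN4-like cells (14.4 and 21.6 CPM), γδ-like cells (2.50 to 18.2 CPM) and Kit-negative cells (4.38 and 4.62 CPM) lay below every DN2- and DN3-like sum. ETP-like cells were at 31.8 and 48.1 CPM.

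Cdkn1b, like Cdkn2c, differed between the runs. It was at 16.1 to 25.8 CPM in the DN2- and DN3-like sums of runs 1 and 2, and at 96.1 to 103 CPM in those of run 3. Within runs 2 and 3, the highest levels were in γδ-like cells (37.0 and 161 CPM) and in the Kit-negative gate (38.0 and 133 CPM). DN4-like cells were lowest, at 13.6 and 71.8 CPM in runs 1 and 3. As a share of the UMIs of the 3 inhibitors, Cdkn1b took 13.7%, 19.7% and 57.5% in DN2a-like cells of runs 1, 2 and 3, so which inhibitor a stage used most depends on the run.

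Cdkn2c was nearly undetected in ETP-like cells. These had 3 UMIs in run 2 (5.96 CPM) and 0 in run 3, which allows up to 3.80 CPM at 3 counts. DN2a-like cells were at 52.6 CPM in run 2, a ratio of 8.83 with a counting interval of 3.01 to 42.9, and at 12.3 CPM in run 3, at least 3.25-fold higher when ETP-like cells are set at 3 counts. The lower counting limit of that ratio was 2.61. In run 2, DN2a-like cells had 21.4 CPM with at most 5 panel UMIs and 94.2 CPM in G2M-like cells with at least 12. In run 3 these were 3.04 and 24.9 CPM, so the low class lay below the ETP-like floor of 3.80 CPM. The Kit-negative gate was at 34.9 CPM, a ratio of 5.86 (1.92 to 29.1), and at 13.8 CPM, at least 3.62-fold higher on the same floor, with a lower counting limit of 2.86. From DN2a-like cells on, Cdkn2c stayed between 51.1 and 84.5 CPM in runs 1 and 2 and between 12.2 and 14.6 CPM in run 3. The call from ETP- to DN2a-like cells held in 11 of 16 other settings. It was lost with gates on thinned cells, with gate markers at 2 UMIs, without run 3, without the run as a block, and in cells with at most 5 panel UMIs (edgeR, adjusted p = 0.22). The Cdkn2c call in Kit-negative against ETP-like cells held in 12 of 16. It was lost with gates on thinned cells, with gate markers at 2 UMIs, without run 3 and without the block.

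Cell cycle classes were made from 17 S phase and 23 G2 and M phase genes, none of them among the 10. Each cell was thinned to 2000 UMIs, and a low-cycle cell had at most 1 panel UMI, while an S-like or G2M-like cell had at least 3 UMIs of the leading panel. These limits lay inside the main mode of the panel sum, as 11.3%, 24.4% and 27.1% of cells in runs 1, 2 and 3 had 2 or 3 panel UMIs. A second set of classes was therefore cut at the trough, with low at most 5 and cycling at least 12 UMIs, after the data had been seen.

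Between S-like and low-cycle cells, 7 of 9 genes tested passed edgeR's test, 5 higher and 2 lower. Of all 8718 genes tested, 48.3% were called, 20.3% higher and 28.1% lower. Gate and run were separate terms of this fit, so classes were not paired within each gate and run. ETP- and DN4-like cells had no low-cycle sum, and DN2a- and DN2b-like cells had none in run 1. Ccnd1 did not pass the filter on low counts. Ccne1 rose by 3.49 on the log2 scale (SE 0.32, adjusted p = 1.8e-12) and Ccne2 by 3.72 (SE 0.35, adjusted p = 3.1e-12). Cdk4 rose by 0.78 (SE 0.07, adjusted p = 4.8e-13), Cdkn2c by 0.90 (SE 0.20, adjusted p = 0.00021) and Ccnd3 by 0.30 (SE 0.09, adjusted p = 0.0054). Cdkn1b fell by 0.82 (SE 0.09, adjusted p = 3.6e-10) and Ccnd2 by 0.36 (SE 0.11, adjusted p = 0.0049). With the classes cut at the trough, the same 7 genes were called, each with a larger difference, such as 4.70 for Ccne2, 0.74 for Ccnd3 and -0.70 for Ccnd2. The Ccnd2 call was lost with the highest doublet scores left out (-0.19, adjusted p = 0.24), with gate markers at 2 UMIs (-0.23, adjusted p = 0.14), with only the gates a run was sorted for (-0.25, adjusted p = 0.097) and with gates on thinned cells (-0.18, adjusted p = 0.21). Without run 2, Ccnd2 (-0.34, adjusted p = 0.078), Ccnd3 (0.32, adjusted p = 0.054) and Cdkn2c (0.55, adjusted p = 0.064) were not called.

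With these later classes, 13 sums of gate and run held all 3 classes. Ccne1, Ccne2, Cdk4 and Cdkn2c were higher in S-like than in low cells in 13 of 13, Ccnd2 in 0 of 13, Ccnd3 in 12 of 13 and Cdkn1b in 1 of 13. DN3-like cells of run 2 had Ccne2 at 3.82 CPM in low and 92.3 CPM in S-like cells. In the same cells Ccnd2 went from 399 to 263 CPM and Ccnd3 from 166 to 281 CPM. Ccnd3 took 26.0% to 29.3% of D cyclin UMIs in low DN3-like cells, 47.9% to 61.3% in S-like and 61.5% to 68.2% in G2M-like cells. In each of the 13 sums the Ccnd3 share was larger in S-like than in low cells and larger again in G2M-like cells, the smallest step being from 35.3% to 35.8% in γδ-like cells of run 3.

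From S-like to G2M-like cells, 6 of 9 genes passed edgeR's test, 2 higher and 4 lower, against 22.6% of all genes, 11.1% higher and 11.6% lower. Cdkn2c rose by 1.15 (SE 0.08, adjusted p = 3.2e-16) and Cdkn1b by 0.32 (SE 0.07, adjusted p = 0.00061). Ccne2 fell by 0.96 (SE 0.11, adjusted p = 8.6e-10), Ccnd2 by 0.56 (SE 0.09, adjusted p = 4.1e-06), Ccne1 by 0.53 (SE 0.10, adjusted p = 8.5e-05) and Cdk4 by 0.23 (SE 0.06, adjusted p = 0.0015). In 13 of 13 sums, Cdkn2c and Cdkn1b were higher in G2M-like than in S-like cells, and Ccnd2, Ccne1, Ccne2 and Cdk4 were lower. Without run 3, Cdkn1b was not called (0.27, adjusted p = 0.077).

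**Figure D5:**
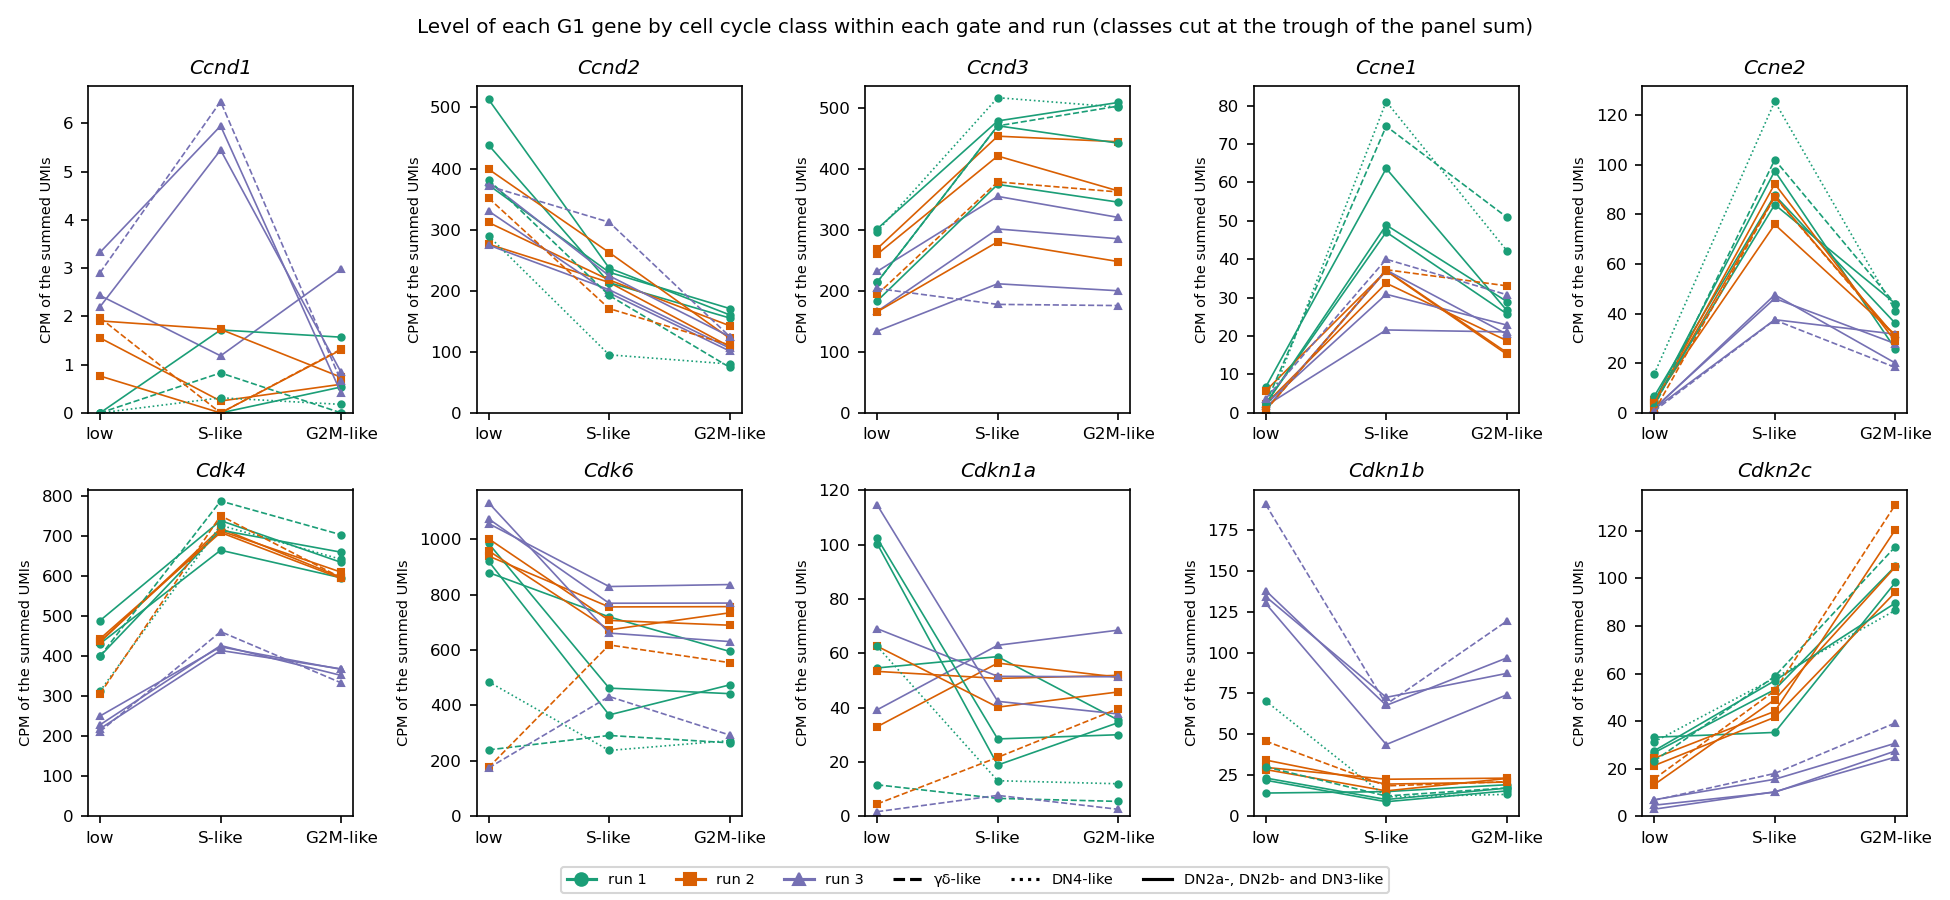
Levels of the 10 genes (CPM of the summed UMIs) in low, S-like and G2M-like cells, with 1 line per gate and run for the 13 sums that hold all 3 classes, cut at the trough. Ccne1 and Ccne2 are highest in S-like cells in every line, Ccnd2 falls in every line, and Cdk6 falls from low to S-like cells in the DN gates and rises in the γδ-like gate.

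Other G1 genes were read from 5 lists. Of the 13 Rb and E2F genes, 0 passed edgeR's test in any of the steps from ETP- to DN4-like cells. In γδ-like against DN3-like cells, 2 of the 13 were higher (Rb1 and Rbl2) and 2 lower (E2f4 and E2f6), with a median log2 difference of -0.35 beside 0.00 over all genes, of which 12.9% were higher and 9.05% lower. In Kit-negative cells, 1 was higher and 2 were lower, beside 12.4% and 11.3% of all genes: Rbl2, an Rb relative of resting cells, was higher by 2.15 (SE 0.33, adjusted p = 0.00012), and E2f1 was lower by 1.73 (SE 0.47, adjusted p = 0.012). Of the 8 CDK partners, activators and turnover genes, 3 were lower in Kit-negative cells, beside 11.3% of all genes, Cks1b by 1.44 (SE 0.35, adjusted p = 0.0060), and 0 were called in the other stage comparisons.

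Of the 5 FoxO and quiescence genes, 3 were higher in γδ-like and 3 in Kit-negative cells, in both cases Btg1, Foxo1 and Tob1, beside 12.9% and 12.4% of all genes. Foxo1, a factor known to drive Cdkn1b, was higher by 1.93 (SE 0.29, adjusted p = 7.7e-05) in γδ-like and by 2.49 (SE 0.58, adjusted p = 0.0040) in Kit-negative cells. All 5 of this list fell from low-cycle to S-like cells, where 7 of the 11 Rb and E2F genes tested rose and 1 fell, beside 28.1% of all genes lower and 20.3% higher. Of the other CDK inhibitors, 2 of 4 could be tested between gates, and both were higher in γδ-like cells, beside 12.9% of all genes. Cdkn1c (p57) was higher by 1.37 (SE 0.39, adjusted p = 0.016) and Cdkn2d (p19) by 0.70 (SE 0.14, adjusted p = 0.0013).

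The p53 list was read beside Cdkn1a. In γδ-like cells, where Cdkn1a was lower, 1 of 8 was higher (Sesn1) and 1 lower (Phlda3, by 0.75, SE 0.19, adjusted p = 0.0072), with a median of 0.04, beside 12.9% of all genes higher and 9.05% lower. In Kit-negative cells, 2 of 8 were higher (Bax and Ccng1) and 0 lower, beside 12.4% and 11.3% of all genes, with a median log2 difference of 0.68 beside 0.04 over all genes. In DN4-like cells, 0 of 8 were called, with a median of -0.05. E2f6 was lower by 0.65 in γδ-like cells (SE 0.17, adjusted p = 0.0081).

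Likeness of pattern was taken as Pearson's r of log2(CPM + 10) over the 18 sums of gate and run, centred within the run, among 2869 genes, and sums of a run share a library. For Cdk6 the most alike genes were Cox6b2, Sh3bgrl and Eef2k (r = 0.98, 0.98 and 0.97), and for Cdkn1a they were Plekha7, Nr2c2ap and Hes1 (0.96, 0.95 and 0.94). Cdk4 was most like Chaf1b, Ndufaf2 and Cfap20 (0.98, 0.98 and 0.98), and Ccne2 most like Rdx, Slbp and Pbk (0.98, 0.98 and 0.98), of which Slbp is a gene of the S panel. Ccnd2 was most like Pdcd4, Arl4c and Junb (0.92, 0.92 and 0.91), and Ccnd3 most like Fkbp2, Rpn2 and Ubl5 (0.82, 0.79 and 0.73). For Ccne1 these were Mtch2, Rpa1 and Hnrnpa2b1 (0.94, 0.92 and 0.92), for Cdkn1b Rchy1, Ptprc and Tmem234 (0.94, 0.93 and 0.93), and for Cdkn2c Rhno1, Zbtb8os and Taf12 (0.91, 0.90 and 0.90). For Ccnd1 no gene is named, as 1 of the 18 sums, ETP-like cells of run 3, was at 22.8 CPM and the others at most at 3.71 CPM. Among the 10 genes themselves, Cdk6 and Cdkn1a had r = 0.88, Cdk4 and Cdk6 had r = 0.85, and Ccnd2 had r = -0.89 with both E cyclins.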

How the data were processed

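The deposited tables hold UMI counts per gene and cell from 10x libraries, made by the authors with Cell Ranger (4.0.0 in the header of the third run) on mm10. The submitters' processing notes also name R 3.6.3 and Seurat 2.3. The kit was V2 or V3.1, and which run used which is not given in the sources used here. Total counts were 39947415, 52797915 and 98533329 UMIs in runs 1, 2 and 3, and median UMIs per kept cell were 5989.5, 4844 and 8507. A cell was kept when 500 to 5000 genes were detected and mitochondrial genes took no more than 7% of its UMIs, which left 5516, 8852 and 7511 of 5527, 8887 and 8869 cells. The study removed doublets itself. Here Scrublet called 0, 429 and 207 cells in runs 1, 2 and 3 and none were removed, and leaving out the top 10% of scores was an alternative, which lost some calls.

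One marker of the γδ-like gate is not reported here. Counts were summed per gate and run, for sums of at least 20 cells, and tested with edgeR 4.0.16 in R 4.3.3 (TMM factors, filterByExpr, quasi-likelihood F test, run as block, two-sided, Benjamini-Hochberg adjustment over all genes tested, threshold 0.05). The 18 stage sums and 44 cell cycle sums come from 3 libraries, so p-values measure the spread between these sums. The run is the block because its gates share a library. Poisson and Clopper-Pearson intervals at 95% and floors of 3 counts cover counting error only. The code was tested on simulated data, where 96 of 100 genes changed 3-fold and 25 of 100 changed 1.5-fold were recovered for γδ-like against DN3-like cells, among 11573 genes. For DN2a-like against ETP-like cells 63 and 7 of 100 were recovered, and for Kit-negative against ETP-like cells 52 and 4 of 100.

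The figure of fitted differences shows all 10 genes in every comparison where they were tested, while the text does not give each value. From the other lists the 2 largest called changes in each direction of a stage comparison are named with their values. Other listed genes are named where a count is 5 or fewer, chosen after their values were seen. The genes, lists and gates were chosen with earlier results of these data known, and the stricter γδ-like gate and the classes with at most 5 and at least 12 panel UMIs were added after seeing these data. Alternatives were DESeq2 1.42.0, RLE factors, no filter, other gate and cell limits, subsets by cycle class, no block, and leaving out each run.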

Additional observations from a re-analysis of the deposited data

Results flagged for a closer look

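Between γδ-like and DN3-like cells, Ccnd2, Ccne2, Cdk4 and Cdkn2c had a 95% counting interval wholly above 0 in at least 1 run and wholly below 0 in another. These intervals cover counting error only, and the share of all genes with such intervals is not given. The difference between runs was not tested. Ccnd1, Ccne1 and Cdkn1b also changed sign between runs, without such intervals on both sides. For Ccnd2 the log2 difference within a run was -0.98 in run 1, 0.05 in run 2 and 0.09 in run 3. For Ccne2 it was 0.39, -0.88 and -0.51, for Cdk4 it was 0.21, -0.36 and -0.08, and for Cdkn2c it was 0.52, -0.38 and 0.15. Run 1 is also the run whose γδ-like gate held Cd8b1 at 117 CPM and whose γδ-like cells were most often cycling (68.7% at 12 or more panel UMIs), and the part of either in these differences was not tested.

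Cdk6 went opposite ways with the cell cycle in the 2 kinds of gate. From low to S-like cells, with classes cut at the trough, the log2 difference in γδ-like cells was 0.28, 1.81 and 1.31 in runs 1, 2 and 3. The rise in run 1 was small, from 239.8 to 291.8 CPM. In runs 2 and 3 the S-like γδ-like sums held 40 and 49 cells. In the DN2a-, DN2b- and DN3-like gates it lay between -1.33 and -0.29 in every run. The difference between the gates was not tested.

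Ccnd1 was found in cells outside the stage gates. In cells with at least 2 myeloid or dendritic markers it was at 21.8 CPM in run 2, from 12 UMIs in 5 of 54 cells, and at 81.9 CPM in run 3, from 115 UMIs in 20 of 89 cells. In the DN2-, DN3-, DN4- and γδ-like gates it was at most 3.71 CPM.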

How the results depend on the processing

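Numbers below count how many of the 10 genes were called. DESeq2, RLE factors, the mitochondrial limit of 5%, leaving out the highest Scrublet scores and the gates each run was sorted for kept every count within 1.5 times, although single calls were lost, as given beside Ccne1, Ccnd2 and Cdkn1b. Without the replicate block, which pairs gates of a run, the count went from 3 to 0 for DN2a-like against ETP-like, from 5 to 0 for DN4-like against DN3-like, from 6 to 3 for Kit-negative against ETP-like, from 7 to 4 for S-like against low cells and from 6 to 3 for G2M-like against S-like cells. With gates on thinned cells, the counts were 1 for DN2a-like against ETP-like, 1 for DN3-like against DN2b-like and 4 for S-like against low cells. The shares of all genes called were then 3.69%, 0.458% and 25.9%. With gate markers at 2 UMIs, the counts were 5 for γδ-like against DN3-like and 3 for Kit-negative against ETP-like cells, beside 20.7% and 9.54% of all genes. With no filter on low counts, 1 gene was called for DN3-like against DN2b-like cells, beside 1.64% of all genes. With the stricter γδ-like gate, 6, 2 and 5 genes were called for DN2a-like against ETP-like, DN3-like against DN2b-like and γδ-like against DN3-like cells, while the share of all genes called in these went from 5.79%, 1.87% and 22% to 8.78%, 4.96% and 42.4%. Without the block, all-gene shares fell as well, to 0.673%, 0%, 8.36%, 27.5% and 3.95% in the order above.

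In cells with at most 5 panel UMIs, 1 gene was called in each step from DN2a-like to DN3-like cells. In cells with at least 12, the count was 2 for DN4-like against DN3-like cells. Comparisons in which a cycle class left DN4- or ETP-like cells with 1 sum are not counted. Leaving out each run in turn gave 0 to 5 genes for DN2a-like against ETP-like, 0 to 2 for DN3-like against DN2b-like, 1 to 2 for DN4-like against DN3-like, 2 to 5 for γδ-like against DN3-like, 2 to 8 for Kit-negative against ETP-like, 4 to 7 for S-like against low and 5 to 6 for G2M-like against S-like cells. A gate left with 1 sum is then assumed to vary like the others. The share of all genes called moved too, so these counts do not speak for the 10 genes alone. Without runs 1, 2 and 3 it was 4.05%, 0.251% and 0.0711% for DN3-like against DN2b-like cells, beside 1.87%. Without run 1 it was 9.88% for DN2a-like against ETP-like cells, beside 5.79%, and 27.9% for Kit-negative against ETP-like cells, beside 23.7%. Without runs 1, 2 and 3 it was 35.4%, 9.65% and 4.17% for γδ-like against DN3-like cells, beside 22%. In the same order it was 43.7%, 35.5% and 30.7% for S-like against low cells, beside 48.3%. For G2M-like against S-like cells it was 22%, 11% and 15.7%, beside 22.6%. With at most 5 panel UMIs it was 2.86% for DN2b-like against DN2a-like cells, beside 0.198%. For DN3-like against DN2b-like cells of that class it was 2.58%, beside 1.87%. With at least 12 it was 1.37% for DN4-like against DN3-like cells, beside 5.59%.

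The direction changed in 3 results that were called under at least 1 of the settings compared. Cdkn1a was higher in DN2b-like than in DN2a-like cells, by 0.77 (adjusted p = 0.011), among cells with at most 5 panel UMIs. Ccne1 was at -4.64 for DN4-like against DN3-like cells in that class, where the DN4-like sum had 0 UMIs. Ccnd2 was at -0.51 for Kit-negative against ETP-like cells with at least 12 panel UMIs, where these gates share no run. Their cause was not tested. Of 721 values uncalled under both settings, 93 changed sign. Of the 180 levels, 62 of 170 lay within the counting interval with gates on thinned cells, and 15 of 120 among low-cycle cells only. Depth limits Ccnd1, the E cyclins and Cdkn2c most in ETP-like cells.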
